A study of Caenorhabditis elegans with 10 samples.

Results

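Chromatin genes were examined among the RNAs that came down with the dynein light chain DLC-1 in young adult *Caenorhabditis elegans*. The genes were chosen by name, with earlier results of these data known. A row of the authors' table of enriched RNAs was a member if its name began with *set-*, *met-*, *mes-*, *jmjd-*, *hda-*, *swsn-* or *chd-*, or if it was 1 of 32 further names of chromatin regulators. This gave 54 of the 2732 listed genes. One of them, *mes-1*, met the rule by its prefix but is not a chromatin gene. It is kept in the counts and figures of chromatin genes below. The same names cover 97 genes of the WBcel235 reference annotation, 96 of them protein-coding, so 43 were not listed. The values compare 5 immunoprecipitates made with an antibody against FLAG with 5 inputs, all from whole extracts of synchronized worms carrying 3xFLAG::DLC-1. Since every sample carries the tag, RNA that binds the antibody or beads without it was not measured here. Input libraries were primed with oligo-dT and the immunoprecipitated RNA was not enriched first, so the effects of library preparation and of immunoprecipitation cannot be told apart in any value given here.

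Chromatin regulators act on the nucleosomes that package DNA. Histone methyltransferases and demethylases add or remove methyl groups on lysines, acetyltransferases and deacetylases do the same with acetyl groups, and remodelers use ATP to move or exchange nucleosomes. In the worm these proteins keep germline and somatic gene programmes apart, silence repeats, and, through the dosage compensation complex, lower expression of both X chromosomes in hermaphrodites. DLC-1 belongs to the LC8 family of small proteins that join the dynein motor and many other complexes, among them complexes of germline RNA-binding proteins.

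For each listed gene the authors' deposited table gives the log2 fold change between immunoprecipitates and inputs (positive where the immunoprecipitates are higher), its standard error (SE) and a mean normalized count over the libraries. It gives no value for single libraries, so the spread of the 10 samples cannot be shown and the depth of each library is unknown. Every member had an adjusted p of 0.000478 or lower in the authors' deposited table. A gene enters the table only with a log2 fold change above 1, so being listed is the authors' call. A gene that is not listed may have been too low to test, lower in the immunoprecipitates, higher by less than 2-fold, or higher without passing the authors' adjusted p of 0.01. The labels do not say whether the replicate numbers stand for separate cultures, so the SEs may hold technical spread only. Levels of tissue markers in the inputs are not in the table, and the labelled whole-worm origin was not checked against them.

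Many of the chromatin genes named by the rule were listed as enriched. Of the 96 protein-coding genes 54 were listed, which is 56.2%, beside 10.6% of all protein-coding genes in the reference (2116 of 19983) and 14.2% of those with a genetic name (1596 of 11266). Of all reference genes 5.67% were listed, and of the genes the authors tested 13.4%. The 32 single names were put together with the table in view, and 24 of them were listed. The prefixes were chosen with results known too, but each takes in every gene of that name, and 30 of their 64 protein-coding genes were listed, or 46.9%. By family, 11 of 32 *set-* genes, both *met-* genes, 4 of 5 *mes-* genes, 3 of 8 *jmjd-* genes, 1 of 8 *hda-* genes, 6 of 7 *swsn-* genes and all 3 *chd-* genes were listed. One of the *set-* genes, *set-33*, is annotated as a pseudogene and was not listed.

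The share varied with the activity group. Remodeling had 16 of 17 genes listed, dosage compensation 6 of 7, demethylases 6 of 12 and acetylation 6 of 15. Methyltransferases and their partners, with *mes-1* counted among them, had 17 of 39, and heterochromatin and synMuv B proteins 3 of 7. The synMuv B genes are repressors first found through vulval development, among them the worm retinoblastoma gene. These shares were not tested against each other. All 6 groups stood above the 10.6% of all protein-coding genes in the plot of shares by group. The groups differ in how their genes were chosen. Dosage compensation and heterochromatin and synMuv B hold only single names put together with the table in view. Remodeling, demethylases and acetylation hold some of these names, while the methyltransferase group was taken by prefix alone.

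**Figure D1:**
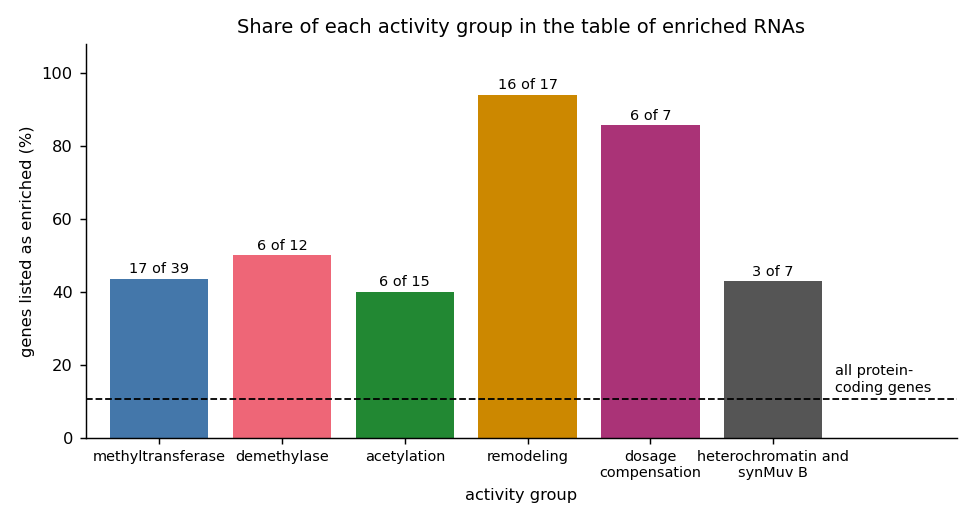
Percent of the reference genes of each activity group that are in the authors' table of enriched RNAs, with the counts above the bars. The dashed line is the share of all protein-coding genes, 10.6%, and the bars run from 40.0% for acetylation to 94.1% for remodeling. The genes of dosage compensation and of heterochromatin and synMuv B were all given by name with the table in view.

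Most members were enriched between 2-fold and 4-fold. Their log2 fold changes ran from 1.04 to 5.79 in the authors' deposited table, with 1.77 as the median, or 3.40-fold. The 2062 other listed protein-coding genes had a median of 1.82 on the log2 scale in the authors' deposited table, close to that of the members. Of the members 18 were at or above 4-fold, or 33.3%, beside 42.3% of listed protein-coding genes, while 8 reached 8-fold and 2 reached 16-fold. More reads lay behind the members' values. The median of their mean counts, which are not corrected for transcript length, was 929 in the authors' deposited table, against 363 for the other listed protein-coding genes, and their median SE was 0.18 on the log2 scale against 0.26. When the null was set at 2-fold, 36 of the 54 members passed a one-sided normal test on the deposited fold and SE (Benjamini-Hochberg adjusted p under 0.01 over the genes tested), or 66.7%, beside 46.9% of listed protein-coding genes. Against 4-fold 9 members passed, beside 13.0% of listed protein-coding genes. The authors' test asks for a higher fold where the SE is larger, so genes of low and high mean were not selected alike.

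**Figure D2:**
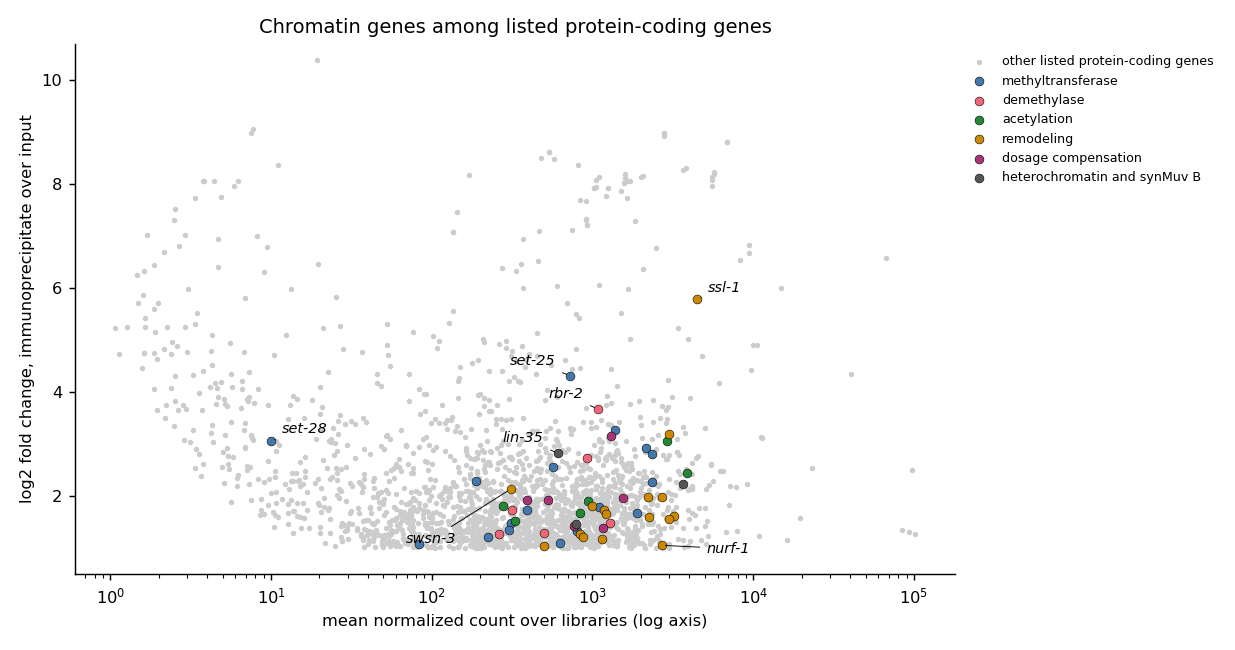
Log2 fold change (immunoprecipitate over input) against the mean normalized count (log axis) for every listed protein-coding gene, with the chromatin genes coloured by activity group. All but 2 of the 54 members have a mean of at least 100, and *ssl-1* and *set-25* are the 2 that reach 16-fold.

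Among the remodelers 1 gene stood far above the rest. *ssl-1* encodes a SWR1- and p400-like ATPase of the family that exchanges histone variants, and it lies on chromosome III from 12714566 to 12744721 (WBcel235). It had a log2 fold change of 5.79 ± 0.22 (SE) in the authors' deposited table, or 55.4-fold, with a mean of 4499 normalized counts. By fold it ranked 97 among the 2116 listed protein-coding genes. *chd-7*, a chromodomain helicase gene, followed at 3.20 ± 0.17 in the authors' deposited table. The next remodelers stood more than 1 log2 unit lower. The Mi-2 ATPase genes *let-418* and *chd-3*, which are paralogues, were at 1.98 ± 0.12 and 1.81 ± 0.12 in the authors' deposited table, and *mep-1*, whose zinc finger protein works with LET-418, was at 1.60 ± 0.16. The difference between the 2 Mi-2 genes was 0.18, with a 95% interval of -0.15 to 0.51 if their errors are taken as independent.

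Some but not all subunit genes of the SWI/SNF remodeler were listed. The ATPase gene *swsn-4* had a log2 fold change of 1.57 ± 0.10 and the core subunit gene *swsn-1* one of 1.74 ± 0.18 in the authors' deposited table. The PBAF-type subunit genes *swsn-7*, *pbrm-1* and *swsn-9* were at 1.98 ± 0.15, 1.62 ± 0.076 and 1.27 ± 0.26 in the authors' deposited table. *pbrm-1*, the polybromo gene, had the smallest SE of the 54 members. *swsn-3* was at 2.14 ± 0.56 in the authors' deposited table, the largest SE of any member, and it did not pass the test against 2-fold (Benjamini-Hochberg adjusted p = 0.216). The actin-related subunit gene *swsn-6* stood at 1.04 ± 0.24, just inside the limit of the authors' deposited table. Of the remaining remodelers, the ISWI ATPase gene *isw-1* was at 1.66 ± 0.22, *chd-1* at 1.21 ± 0.17, the ATRX homologue *xnp-1* at 1.17 ± 0.13 and *nurf-1*, for the large subunit of NURF, at 1.05 ± 0.078 in the authors' deposited table. None of these 4 passed the test against 2-fold. *swsn-2.2* was the only remodeling gene of the rule that was not listed.

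Genes of the methyltransferase group ranged from 1.07 to 4.32 in log2 fold change, as the authors' deposited table gives them. *set-25*, for a histone H3 lysine 9 methyltransferase of silent chromatin at the nuclear periphery, had a log2 fold change of 4.32 ± 0.16, as given in the authors' deposited table, or 19.9-fold (chromosome III, 13283824 to 13293090, WBcel235). *met-2*, for the SETDB1-like enzyme that makes the lower methylation states of the same lysine, was at 1.79 ± 0.17 in the authors' deposited table. The difference was 2.52, with a 95% interval of 2.06 to 2.98 if the errors are independent, for a pair chosen after its values were seen. The genes for both H3 lysine 4 methyltransferases of the SET1 and MLL type were listed, *set-2* at 3.27 ± 0.30 and *set-16* at 2.82 ± 0.12 in the authors' deposited table (difference 0.45, 95% interval -0.17 to 1.07). Genes for lysine 36 methylation were lower, with *met-1* at 1.68 ± 0.11 and *mes-4* at 1.33 ± 0.17 in the authors' deposited table, and of these *mes-4* did not pass the test against 2-fold (Benjamini-Hochberg adjusted p = 0.225).

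*set-26* and *set-9*, which encode closely related proteins with a PHD finger and a SET domain, were at 2.93 ± 0.21 and 2.26 ± 0.24 in the authors' deposited table. Since the genes are close copies, reads may be divided wrongly between them. Of the Polycomb complex PRC2, which methylates H3 lysine 27 in the germline, *mes-3* was at 2.56 ± 0.26 and the ESC homologue *mes-6* at 1.48 ± 0.35 in the authors' deposited table, while *mes-2*, for the catalytic subunit, was not listed. The other listed SET-domain genes were *set-28* at 3.07 ± 0.54, *set-19* at 2.29 ± 0.36, *set-24* at 1.74 ± 0.20, *set-21* at 1.34 ± 0.21, *set-5* at 1.102 ± 0.19 and *set-6* at 1.07 ± 0.26 in the authors' deposited table. The values of *set-28* and *set-6* rest on few reads, with means of 10.02 and 83.7 normalized counts in the authors' deposited table. The prefix also brought in *mes-1*, at 1.22 ± 0.12 in the authors' deposited table, which encodes a receptor tyrosine kinase-like protein of early germline divisions and is not a chromatin gene. Among the 22 genes of this group not listed were *set-1* and *set-4*, for the enzymes of H4 lysine 20 methylation, and *set-17* and *set-32*.

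Demethylase genes were led by *rbr-2*, for the KDM5-type enzyme that removes methyl groups from H3 lysine 4. Its log2 fold change was 3.68 ± 0.31 in the authors' deposited table. Its span (chromosome IV, 10920070 to 10926817, WBcel235) overlaps that of the dynactin gene *dnc-1*, which is listed too, so reads may have been shared. *jmjd-1.2*, for a PHF8-type demethylase, was at 2.74 ± 0.40 in the authors' deposited table. The other 4 did not pass the test against 2-fold. They were the H3 lysine 27 demethylase genes *utx-1* at 1.74 ± 0.26 and *jmjd-3.1* at 1.27 ± 0.27, the KDM4-type *jmjd-2* at 1.48 ± 0.24 and the LSD1 homologue *spr-5* at 1.28 ± 0.14 in the authors' deposited table. The second LSD1 homologue *lsd-1* and the genes *jmjd-1.1*, *jmjd-3.2*, *jmjd-3.3*, *jmjd-4* and *jmjd-5* were not listed.

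Among the acetylation genes, those for large coactivators and bromodomain readers were listed and most deacetylases were not. The *hda-* genes were taken by prefix, and 1 of 8 was listed, beside 10.6% of all protein-coding genes. The others were given by name with the table in view, so the 2 kinds cannot be compared by share. In the list outside the rule, deacetylase complexes and sirtuins had 9 of 15 genes listed and acetyltransferase complexes 4 of 10. *cbp-1*, for the p300/CBP acetyltransferase, had a log2 fold change of 3.06 ± 0.26, as given in the authors' deposited table and *trr-1*, for the TRRAP scaffold, one of 2.45 ± 0.17. The double bromodomain genes *bet-1* and *bet-2* were at 1.90 ± 0.19 and 1.68 ± 0.18 in the authors' deposited table (difference 0.23, 95% interval -0.29 to 0.74). *mys-2*, a MYST acetyltransferase gene, was at 1.52 ± 0.14, and the class II deacetylase gene *hda-4* at 1.81 ± 0.26 in the authors' deposited table. *hda-4* missed the test against 2-fold narrowly (Benjamini-Hochberg adjusted p = 0.0146). The deacetylase genes *hda-1*, *hda-2*, *hda-3*, *hda-5*, *hda-6*, *hda-10* and *hda-11* were not listed, nor were the TIP60 homologue *mys-1* and the chromodomain gene *mrg-1*.

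The rule held 7 dosage compensation genes, all given by name with the table in view. Of these 6 were listed, beside 10.6% of all protein-coding genes. All 6 passed the test against 2-fold, beside 46.9% of listed protein-coding genes. *dpy-21*, for the Jumonji enzyme that demethylates H4 lysine 20 on the X chromosomes, stood highest at a log2 fold change of 3.16 ± 0.17, as given in the authors' deposited table. The condensin-type subunit genes *dpy-28*, *dpy-27* and *dpy-26* were at 1.96 ± 0.18, 1.43 ± 0.13 and 1.40 ± 0.080 in the authors' deposited table. *sdc-2*, the hermaphrodite-specific recruiter of the complex, and *sdc-3* were nearly equal, at 1.92 ± 0.17 and 1.92 ± 0.12 in the authors' deposited table (difference 0.0017, 95% interval -0.40 to 0.40). *dpy-21* exceeded *dpy-28*, the next highest, by 1.19 (95% interval 0.70 to 1.68 if the errors are independent). This pair was chosen after its values were seen, so the interval does not test the difference. *sdc-1* was the member not listed.

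Of the heterochromatin and synMuv B genes, the retinoblastoma gene *lin-35* had a log2 fold change of 2.83 ± 0.48, the zinc finger gene *lin-13* one of 2.23 ± 0.14 and *lin-15B* one of 1.47 ± 0.096 in the authors' deposited table. All 3, given by name with the table in view, passed the test against 2-fold, beside 46.9% of listed protein-coding genes. Both HP1 genes, *hpl-1* and *hpl-2*, were not listed, nor were the MBT-repeat gene *lin-61* and *lin-54*, for the DNA-binding subunit of the DREAM complex.

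**Figure D3:**
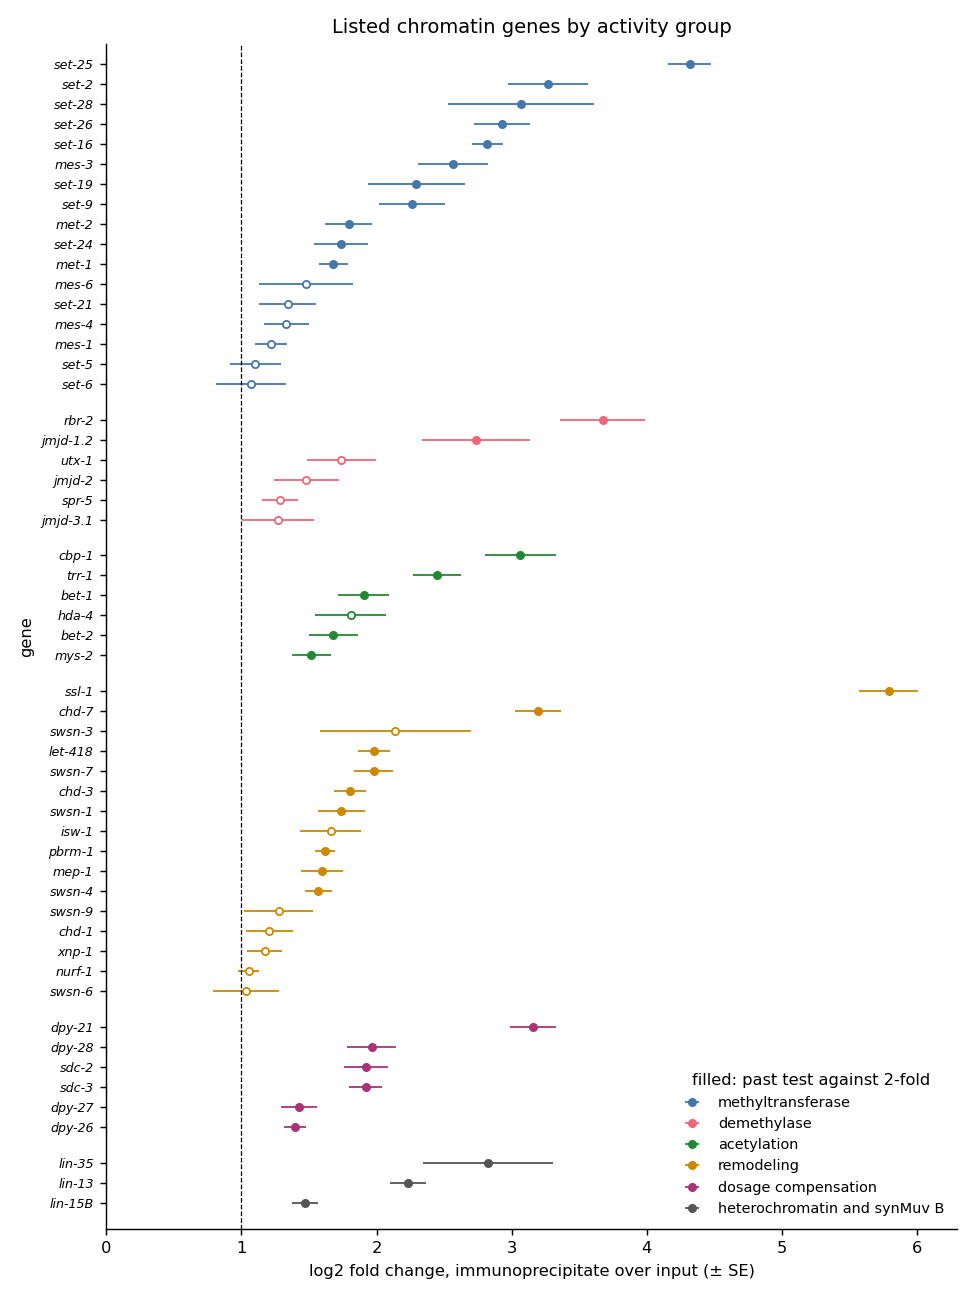
Log2 fold change (immunoprecipitate over input) with its SE for each of the 54 listed members of the rule, by activity group, with *mes-1* among the methyltransferases. The dashed line marks the 2-fold limit of the table. Filled points are the 36 genes past the one-sided test against 2-fold, or 66.7%, beside 46.9% of listed protein-coding genes.

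The SE of each of the 54 members was set beside those of listed protein-coding genes with a like mean. It was above the median of such genes for 18 members and below it for 36. For 3 members it exceeded more than 95% of them, and a cut of this kind is passed by some genes of any set. The SE of *swsn-3* exceeded those of 97.6% of the 421 listed protein-coding genes whose mean lay within 1.5-fold of its own, that of *lin-35* exceeded 99.3% of 431 and that of *jmjd-1.2* 97.3% of 449. Their means were 310, 611 and 924 normalized counts in the authors' deposited table. The SE of *set-28*, by contrast, was below the median of genes with a like mean, 0.54 against 0.62. Which libraries spread for these genes is not shown by the table.

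Listing followed gene span closely among the chromatin genes. All 24 members that span 8 kb or more were listed, 24 of 36 between 4 and 8 kb, and 6 of 36 below 4 kb. Over all protein-coding genes the shares were 50.4% (738 of 1464), 24.4% and 4.35% in the same ranges. Listed members had a median span of 6600 bp and the protein-coding members not listed 2965 bp, against 5615 bp for all listed protein-coding genes and 2005 bp for all protein-coding genes. The families taken by prefix showed the same order, with 11 of 11, 14 of 25 and 5 of 28 listed. Gene span includes introns and stands in for transcript length, which the reference used here does not give. Its part in the listing was not tested.

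**Figure D4:**
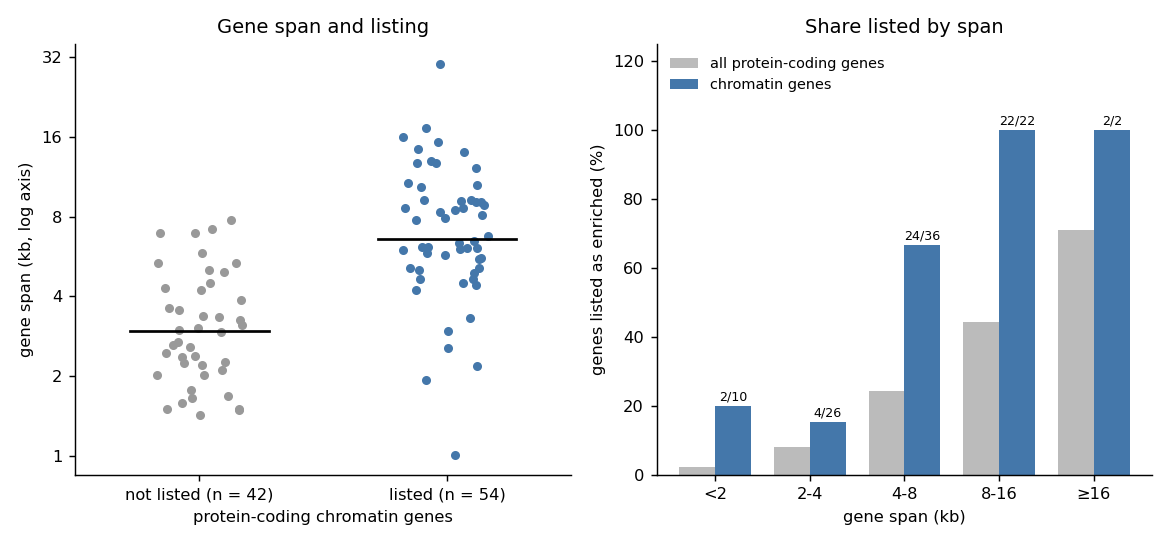
Left, gene span (kb, log axis) of the 96 protein-coding chromatin genes by whether they were listed, with the medians as lines. Right, percent listed within ranges of gene span for all protein-coding genes and for the chromatin genes, whose counts stand above the bars. All 24 chromatin genes of the rule that span 8 kb or more were listed, and 13 of them were given by name with the table in view.

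Activity groups also differed in their counts within the same range of span, which was not tested. Acetylation had 5 of 5 genes listed at 8 kb or more, 1 of 4 between 4 and 8 kb and 0 of 6 below 4 kb, and the methyltransferase group 7 of 7, 7 of 13 and 3 of 18. Remodeling had 5 of 5, 8 of 8 and 3 of 4, and demethylases 2 of 2, 4 of 6 and 0 of 4. Heterochromatin and synMuv B had 1 of 1, 2 of 2 and 0 of 4. Dosage compensation had 4 of 4 at 8 kb or more and 2 of 3 between 4 and 8 kb. All groups but the methyltransferases hold names put together with the table in view, so their counts are partly fixed by that choice and the groups cannot be compared. The 3 short remodeling genes that were listed are *mep-1*, *swsn-9* and *swsn-6*. Among the listed members the fold had a Spearman's rho of 0.37 with span across 54 genes, which share the same libraries. Over all 2116 listed protein-coding genes rho was -0.020, and Pearson's r of the log2 fold change with log2 span was -0.39, against 0.35 for the members. Under 2 kb the 223 listed protein-coding genes had a median log2 fold change of 4.18, and only 2 members lie there. At 2 to 4, 4 to 8, 8 to 16 and 16 kb or more their medians were 1.56, 1.69, 1.90 and 2.11. The members had 1.41, 1.71, 1.92 and 3.42 in these ranges, from 4, 24, 22 and 2 genes. *nurf-1*, with a span of 17199 bp, had the second lowest log2 fold change of the 54 members at 1.05 in the authors' deposited table.

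By chromosome, 11 of 18 chromatin genes were listed on I, 5 of 15 on II, 11 of 17 on III, 10 of 14 on IV, 6 of 12 on V and 11 of 20 on X. The shares of all protein-coding genes ran from 6.07% on V to 14.4% on I, with 13.0% on X. For 9 members the span overlaps another protein-coding gene, *set-25*, *set-24*, *mes-6*, *rbr-2*, *isw-1*, *pbrm-1*, *chd-1*, *dpy-26* and *lin-35*, and for *rbr-2* and *isw-1* the overlapping gene is itself listed (*dnc-1* and *rbf-1*). The strand setting of the authors' counting is not given in the sources used here, so these values may hold reads of the neighbour. Overlaps with genes that are not protein-coding were not checked.

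A list of chromatin genes outside the rule was also above the rate of all protein-coding genes. This list too was made with earlier results of these data known. Of its 93 genes in the reference 33 were listed as enriched, or 35.5%. The shares were 10.6% of all protein-coding genes and 14.2% of those with a genetic name. These 33 had a median of 1.79 on the log2 scale in the authors' deposited table. Of the 33, 19 passed the test against 2-fold, beside 46.9% of listed protein-coding genes. Deacetylase complexes and sirtuins had 9 of 15 genes listed, remodeling partners 4 of 9, partners of methyltransferases 4 of 10, acetyltransferase complexes 4 of 10, condensin 3 of 6, synMuv genes 4 of 12, chromodomain and MBT readers 3 of 13, Polycomb ring genes 1 of 2, histone chaperones 1 of 10 and arginine methyltransferases 0 of 6. The highest was the synMuv gene *lin-38* at 4.52 ± 0.27 in the authors' deposited table. By span 12 of 15 were listed at 8 kb or more, 15 of 25 between 4 and 8 kb and 6 of 53 below 4 kb, and the 3 long genes not listed were *mix-1*, *ash-2* and *rad-54.B*.

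Complexes were listed in part. The grouping into complexes was made after the values were seen. Of 13 SWI/SNF genes 9 were listed, without *snfc-5*, *ham-3*, *swsn-2.2* and *dpff-1*, the highest being the ARID subunit gene *let-526* at a log2 fold change of 2.86 ± 0.22, as given in the authors' deposited table. Of 8 genes of the NuA4/TIP60 acetyltransferase complex 3 were listed, *ssl-1*, *trr-1* and the scaffold gene *epc-1*, at 2.72 ± 0.12 in the authors' deposited table, with spans of 30156, 14359 and 8838 bp. The 5 not listed, *mys-1*, *mrg-1*, *gfl-1*, *ruvb-1* and *ruvb-2*, span 925 to 3628 bp. Of 8 genes of the NuRD and MEC complexes 6 were listed, with *lin-40* at 2.01 ± 0.16 and *egl-27* at 2.35 ± 0.37 in the authors' deposited table, and *hda-1* and *lin-53*, of 2023 and 1550 bp, were not. COMPASS-type complexes had 4 of 9 listed, and the subunit genes *ash-2*, *rbbp-5*, *wdr-5.1*, *cfp-1* and *dpy-30* were not among them. Of the dosage compensation complex 7 of 10 were listed, including the condensin subunit gene *capg-1* at 1.11 ± 0.095 in the authors' deposited table, which did not pass the test against 2-fold. Its genes *sdc-1*, *dpy-30* and *mix-1*, the last with a span of 17179 bp, were not listed.

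**Figure D5:**
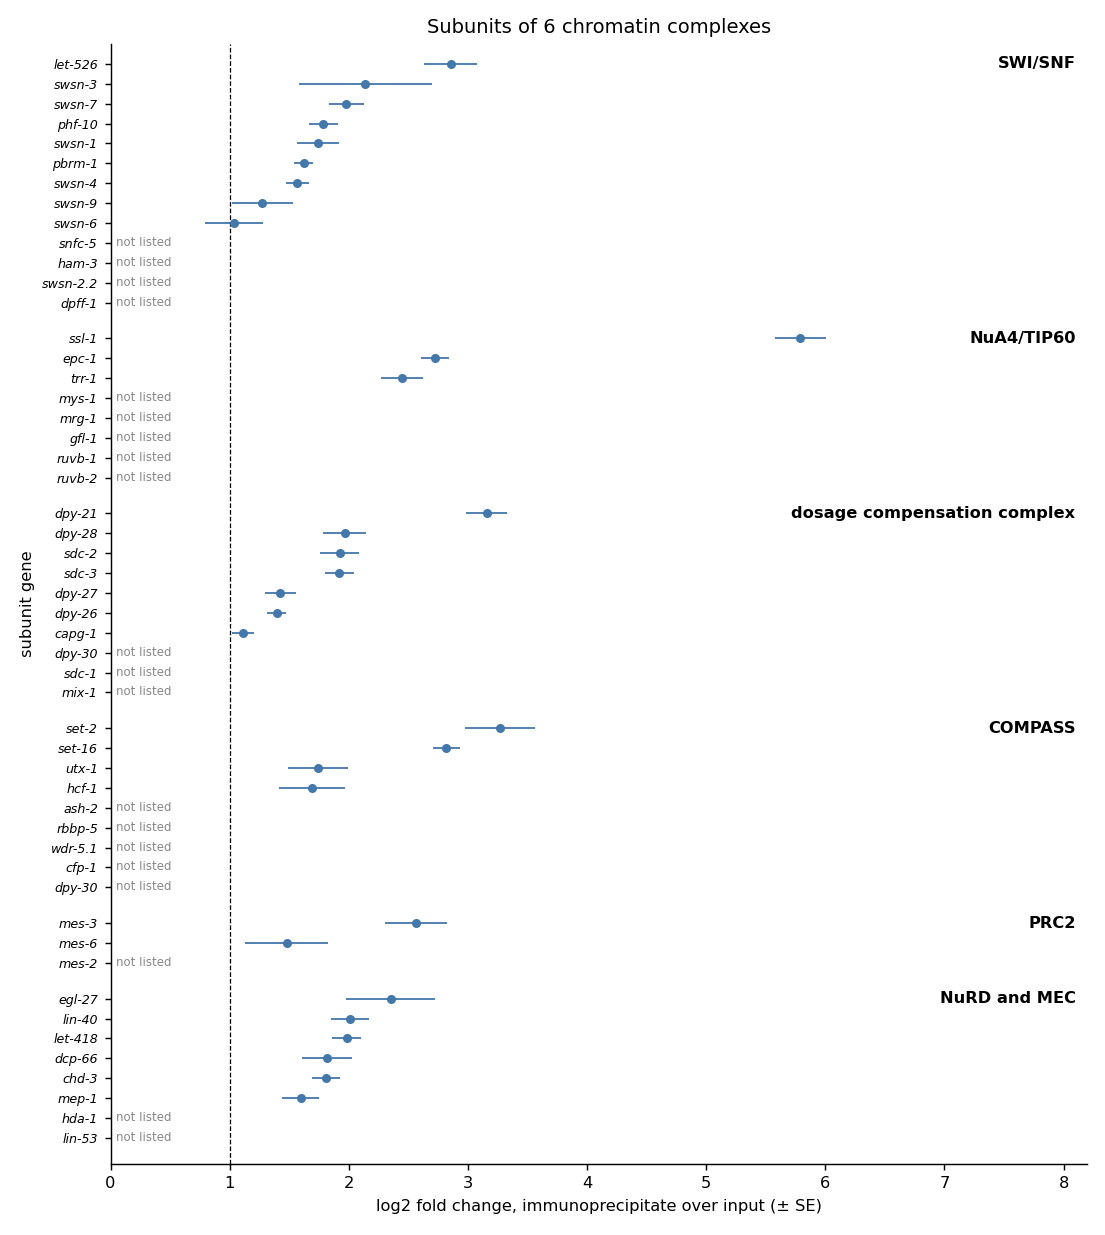
Log2 fold change (immunoprecipitate over input) with its SE for the subunit genes of 6 chromatin complexes, with genes that are not in the table marked as not listed. The dashed line is the 2-fold limit of the table, and the listed subunits run from *swsn-6* at 1.04 to *ssl-1* at 5.79.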

How the data were processed

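RNA from 5 FLAG immunoprecipitates and 5 inputs was compared by the authors, with groups taken from the sample titles. DESeq2 1.12.3, STAR 2.5.2b-0, Bowtie2 2.3.0 and Trim Galore are the tools, and ce11 and WBcel235 the builds, per the submitters' processing notes, which give no roles. How reads were counted, by strand or at several places, is not given in the sources used here. Per the file headers, the deposited table holds for each gene a mean normalized count (a signal over libraries), a log2 fold change with its SE, a test score, a p-value and an adjusted p-value. Whether the authors' folds were shrunken is not stated. The deposited p-values above 0 match the upper normal tail of the score in all 2725 such genes (relative difference under 1e-06), so the test was one-sided.

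The adjusted p-values imply 20328 tested genes, and 762 genes past an adjusted p of 0.01 are not in the table. With Python 3.11.15 and scipy 1.17.1, each listed gene was tested one-sided against 2-fold, as the log2 fold change minus 1 over its SE, with Benjamini-Hochberg adjustment over 20328 genes at 0.01. The calculation was tested on simulated data. Intervals are 1.96 SE on either side, and the 8 pairs of genes compared by them were chosen after their values were seen. Names were matched to the 46926 genes of the reference, 2660 of 2732 in all, and 4 names of the list of other chromatin genes were not found in it. All listed members were named, by rule. The members and lists were chosen with earlier results of these data known. No sequences are shown.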

Additional observations from a re-analysis of the deposited data

How the results depend on the processing

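The number of members past the test fell from 36 to 9 when the test was made against 4-fold in place of 2-fold, which asks for a larger change. Adjusting over the genes in the table alone gave 39, and a minimum mean of 100 normalized counts gave 35. The number of members listed was 54. It stayed between 45 and 53 without *mes-1*, with the minimum mean, without *set-9* and *set-26*, or without the 9 members that overlap another protein-coding gene. The last 2 alternatives were chosen after seeing the data. The median log2 fold change stayed between 1.74 and 1.81 under the same alternatives, and the percent listed between 54.2% and 56.2% with the minimum mean or with the pseudogene counted. Of single members, 3 passed the test against 2-fold only with the smaller adjustment, and 27 of the 36 that passed did not pass against 4-fold. No paired analysis was possible because the table holds no values per sample, and for the same reason leaving out single replicates was not run.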
